A study of Mus musculus with 25 samples.

Results

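GATA1 binding locations that MultiGPS called and peak pairing did not were taken from the GATA1 location lists of a ChIP-exo study of mouse erythroid cells. A GATA1 MultiGPS location belonged to this set when no GATA1 peak pair lay at 100 bp or less from it, which left 2491 of 12781 MultiGPS locations, or 19.5%. They are called MultiGPS-alone locations here. The other 10290 MultiGPS locations had a peak pair and make up the final GATA1 list of the study, and 25159 further GATA1 peak pairs had no MultiGPS location at 100 bp or less. The members were selected on their distance to a GATA1 peak pair, so this distance is described and not tested.

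ChIP-exo trims immunoprecipitated DNA with lambda exonuclease up to the cross-linked protein, so that tag ends mark the edges of the contact on both strands. GATA1 was mapped in 10 libraries, with 3 each from G1E-ER4 cells at 0, 3 and 24 h of estradiol, given as 10 nM in the sample labels and as a higher dose in the paper's methods, and 1 from G1E cells, while TAL1 was mapped in 15 libraries, with 4 from G1E cells and 5, 3 and 3 from G1E-ER4 cells at 0, 3 and 24 h. G1E is a GATA1-null mouse erythroid progenitor line of strain 129, and its derivative G1E-ER4 carries GATA1 fused to the ligand-binding domain of the estrogen receptor, so GATA1 in G1E-ER4 cells is the fusion protein. Each list gives single base positions in mm9, pooled over all libraries of a factor, with no tag count, score, time point or replicate. By the paper's methods the GATA1 lists rest on G1E-ER4 cells alone, while the labels link the G1E library to them too. The spread between cultures and the depth behind a single location therefore could not be given. The intervals below, all at 95%, are exact binomial ones for shares and conditional ones, given the group totals, for odds ratios. Both kinds cover counting error only. Intervals and tests treat locations as independent, although neighbors can share a motif.

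GATA1 is a zinc finger protein that binds WGATAA, in which W is A or T, and drives the maturation of red cells and megakaryocytes. TAL1 is a basic helix-loop-helix protein that binds E-boxes as a dimer with E proteins, and it is joined to GATA1 on DNA through LMO2 and LDB1, often where an E-box or the TG that ends it lies a short way upstream of WGATAA. MultiGPS fits the shape of the tag distribution around binding events over all conditions together, whereas peak pairing joins a peak on each strand into a pair.

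The sequences of 4 MultiGPS-alone locations show the composite of TG and WGATAA that the TAL1 results below turn on. They were picked after their values were seen, from genes named below, for having a TAL1 call under 40 bp away and a TG that ends 7 or 8 bp before WGATAA. Capitals mark the TG and the WGATAA closest to the location, each is written 5′ to 3′ on the minus strand of mm9, and the location itself may lie just outside the stretch shown.
Pde4d intron, chr13:109334373-109334423, TAL1 call at 26 bp: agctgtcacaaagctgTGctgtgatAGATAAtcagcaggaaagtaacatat
Pde4d intron, chr13:109754360-109754410, TAL1 call at 2 bp: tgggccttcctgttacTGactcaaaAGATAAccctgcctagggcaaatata
Rhag intron, chr17:40954753-40954803, TAL1 call at 17 bp: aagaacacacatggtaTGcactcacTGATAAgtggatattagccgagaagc
Car8 upstream, chr4:8212251-8212301, TAL1 call at 6 bp: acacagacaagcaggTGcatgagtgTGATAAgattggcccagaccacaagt

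Most MultiGPS-alone locations near the blood genes of the lists used here had no such TAL1 call. The same held for 2031 of all 2491 MultiGPS-alone locations, so this is not particular to blood genes. The next 6 are the ones closest to the start site of a named blood gene with WGATAA within 20 bp, each as 61 bp centered on the location, except that the Uros location lies in a 5′ untranslated exon part and only 30 bases around the motif are given. Capitals mark WGATAA, and in Uros also the TG at 7 bp. None of the 6 had a TAL1 call under 40 bp away. Cdk6 is written on the minus strand of mm9 and the others on the plus strand.
Uros, chr7:140900627-140900656: acaaccTGcacgccgAGATAAccgagagcg
Gfi1b, chr2:28475087-28475147: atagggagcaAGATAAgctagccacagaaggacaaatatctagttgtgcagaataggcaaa
Runx1, chr16:92693176-92693236: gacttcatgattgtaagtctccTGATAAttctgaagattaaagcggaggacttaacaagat
Alas2, chrX:146974867-146974927: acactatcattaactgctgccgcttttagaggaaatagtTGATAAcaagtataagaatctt
Slc11a2, chr15:100226595-100226655: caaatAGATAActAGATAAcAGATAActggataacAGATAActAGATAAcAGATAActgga
Cdk6, chr5:3355211-3355271: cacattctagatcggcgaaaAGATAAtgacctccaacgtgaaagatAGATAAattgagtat
The Slc11a2 location stood out among these by a row of closely spaced copies of the motif.

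Another kind of sequence was a plain tandem repeat of GATA, and the first locations of the runs near Acan and Kctd18, described below, are shown for it on the plus strand of mm9, with WGATAA in capitals where it occurs.
Acan run, chr7:86150061-86150121: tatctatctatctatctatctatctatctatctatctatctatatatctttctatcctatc
Kctd18 run, chr1:57978992-57979052: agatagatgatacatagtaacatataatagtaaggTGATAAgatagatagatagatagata

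Most MultiGPS-alone locations were far from any GATA1 peak pair. The median distance to the closest pair was 4038 bp, with quartiles of 549 and 17313 bp, and 851 locations (34.2%) were more than 10 kb from any pair. Another 597 (24.0%) had a pair at 101 to 500 bp, so for these a pair lay in the same neighborhood although not at the location. A final GATA1 location lay under 500 bp from 166 of them (6.66%). At the limit itself, 53 MultiGPS-alone locations had their closest pair at 101 to 110 bp, and 62 of the locations with a pair had it at 91 to 100 bp. Just inside the set, the locations at 69747632 on chromosome 13 (closest start site Srd5a1), 60933237 on chromosome 2 (Rbms1) and 106894016 on chromosome 4 (Ldlrad1) had a pair at 101 bp. Just outside it, those at 109449244 on chromosome 11 (Wipi1), 34401085 on chromosome 13 (Slc22a23) and 163515614 on chromosome 2 (Pkig) had one at 100 bp. Locations with a pair were mostly much closer to it, and 5458 of the 10290 had it at 10 bp or less. On the 20 chromosomes the MultiGPS-alone share of MultiGPS locations ran between 17.1 and 23.1%.

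TAL1 was called near MultiGPS-alone locations far less often than near MultiGPS locations with a peak pair. TAL1 was read in other libraries than GATA1, so these counts do not use the values that chose the members. A final TAL1 location, one that both callers gave for TAL1, lay under 40 bp from 249 of the 2491 MultiGPS-alone locations (10.0%, 8.85 to 11.2%), against 3697 of the 10290 with a pair (35.9%, 35.0 to 36.9%), and over all MultiGPS locations the share was 30.9%. The odds ratio was 0.198 (95% interval, 0.172 to 0.227, adjusted p = 2.01e-162, Fisher's exact test, two-sided, Benjamini-Hochberg over 8 features). With any TAL1 call counted, that is, a TAL1 MultiGPS location or a TAL1 peak pair, the share was 18.5% (460 locations), against 52.9% (5446) of those with a pair and 46.2% over all MultiGPS locations (odds ratio 0.201, 0.180 to 0.225, adjusted p = 3.13e-225, same Fisher's exact test). On each of the 20 chromosomes the share was lower in MultiGPS-alone locations, at 13.4 to 25.4%, than in those with a pair, at 48.2 to 59.7%.

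The 460 MultiGPS-alone locations with a TAL1 call divided into 249 with a final TAL1 location, 64 with a TAL1 MultiGPS location alone and 147 with a TAL1 peak pair alone. For another 417 (16.7%) the closest TAL1 call was at 40 to 499 bp, and 1614 (64.8%) had none under 500 bp, against 1536 (14.9%) and 3308 (32.1%) of the locations with a pair. Where a TAL1 MultiGPS location was close to a MultiGPS-alone GATA1 location, it was itself in the final TAL1 list in 249 of 313 cases (79.6%, 74.7 to 83.9%), against 3697 of 4015 (92.1%, 91.2 to 92.9%) at GATA1 locations with a pair. This difference was not tested. At those closer than 40 bp, the median distance between the GATA1 location and the final TAL1 location was 16 bp for MultiGPS-alone locations and 15 bp for those with a pair. So 249 of the 460 MultiGPS-alone locations with a TAL1 call (54.1%, 49.5 to 58.8%) had one from both callers for TAL1, although GATA1 was called there by 1 of them. At locations with a pair this held for 3697 of 5446, a larger share, and the difference was not tested.

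**Figure D1:**
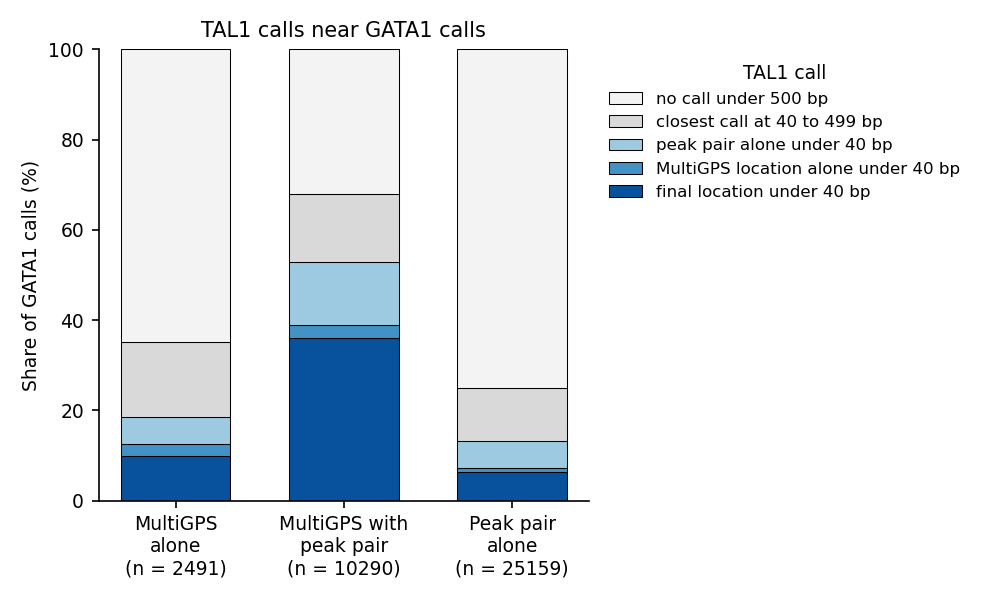
Share of GATA1 calls (vertical axis, %) by the closest TAL1 call, for MultiGPS-alone locations (left), MultiGPS locations with a peak pair (middle) and peak pairs with no MultiGPS location (right). The 3 blue parts, TAL1 calls under 40 bp, add up to 18.5% in MultiGPS-alone locations, 52.9% in those with a pair and 13.2% in pairs alone.

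The TAL1 share was lower than at locations with a pair at every distance from the closest GATA1 pair. It was 24.1% (18.7 to 30.3%) of the 224 locations with a pair at 101 to 150 bp, 18.2% (15.0 to 21.7%) of the 538 at 1001 to 5000 bp and 14.2% (10.2 to 18.9%) of the 268 beyond 50000 bp. The share did not fall steadily in between. At 151 to 500 bp it was 21.7% and at 501 to 1000 bp 15.8%. At 5001 to 20000 bp it was 16.6% and at 20001 to 50000 bp 20.2% (15.6 to 25.4%). All 7 distance bands stayed below the 52.9% of locations with a pair. WGATAA was present in 44.2, 53.9 and 41.0% of the bands at 101 to 150, 1001 to 5000 and beyond 50000 bp. These bands use the measure that chose the members and are given as a description.

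**Figure D2:**
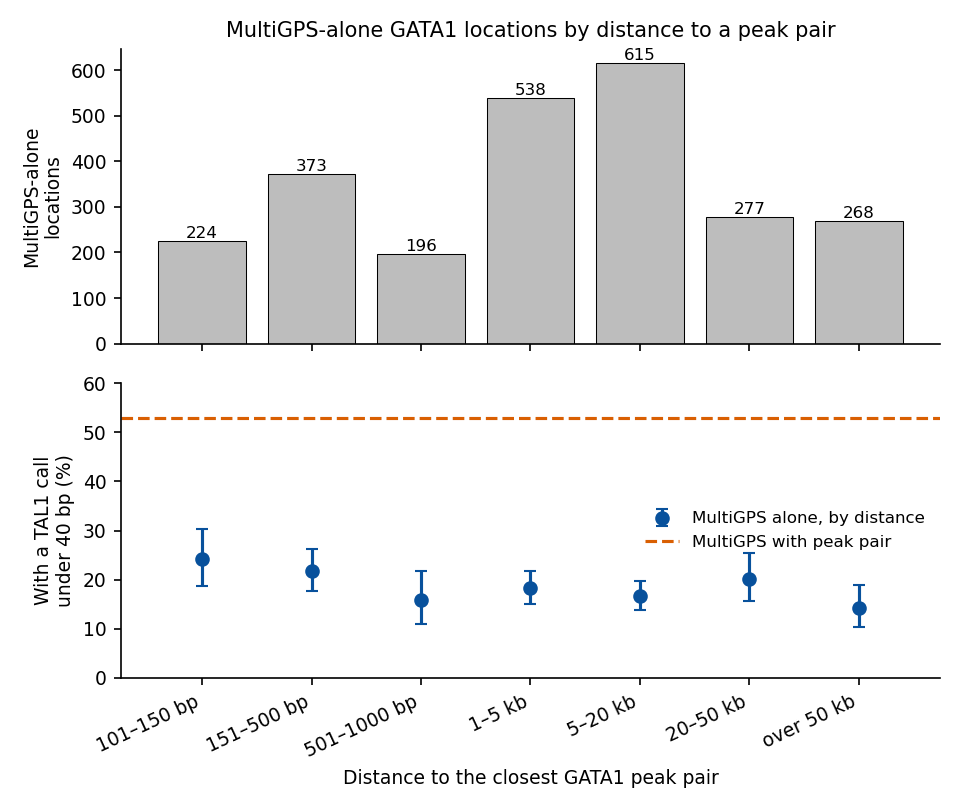
Number of MultiGPS-alone GATA1 locations (top) and the percentage of them with a TAL1 call under 40 bp (bottom, points with 95% exact binomial intervals) by distance to the closest GATA1 peak pair. The dashed line is the 52.9% of MultiGPS locations with a pair, and all 7 points lie below it, between 14.2 and 24.1%.

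Against the GATA1 peak pairs with no MultiGPS location, a comparison added after the data were seen, MultiGPS-alone locations had TAL1 and the motif more often. Each pair was counted singly, although by the paper pairs often lie very close together and MultiGPS takes such pairs as a single location. MultiGPS was also run with motif finding, so the difference in WGATAA is not fully independent of the caller. A TAL1 call of any kind lay under 40 bp from 18.5% of MultiGPS-alone locations and 13.2% of pairs alone (odds ratio 1.49, 1.34 to 1.66, adjusted p = 3.6e-12, Fisher's exact test, two-sided, Benjamini-Hochberg over 5 features). For final TAL1 locations the shares were 10.0 and 6.37% (odds ratio 1.63, 1.41 to 1.88, adjusted p = 9.73e-11, same Fisher's exact test). WGATAA lay within 40 bp of 47.5% of MultiGPS-alone locations and 38.2% of pairs alone (odds ratio 1.46, 1.35 to 1.59, adjusted p = 5.77e-19, same Fisher's exact test). A start site lay within 1 kb of 8.71 and 7.91%, a difference that did not pass the test (odds ratio 1.11, 0.956 to 1.29, adjusted p = 0.163, same Fisher's exact test).

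WGATAA, the binding motif of GATA1, was less frequent at MultiGPS-alone locations than at those with a pair, and far more frequent than in the DNA around them. The exact string AGATAA or TGATAA was searched on both strands, wholly within the 81 bp centered on a location. It was found at 1183 of the 2491 MultiGPS-alone locations (47.5%), against 6839 of the 10290 with a pair (66.5%) and 62.8% of all MultiGPS locations (odds ratio 0.456, 0.417 to 0.499, adjusted p = 7.15e-67, Fisher's exact test, two-sided, over the same 8 features). In windows of the same length moved by 1 kb to either side it was found in 9.13% for MultiGPS-alone locations and 8.33% for those with a pair. The core GATA alone was present at 78.7% of MultiGPS-alone locations and 92.1% of those with a pair, against 33.8 and 32.0% of their moved windows. MultiGPS was run by the authors with motif finding, so the motif is not fully independent of its calls. The paper had already reported, by another motif search on the same data, fewer WGATAA motifs among calls of 1 method alone. The test is therefore not independent support for that result. Where the motif was present and no TAL1 call lay under 40 bp away, the median distance to its middle was 12.5 bp at MultiGPS-alone locations and 11.5 bp at those with a pair. With a TAL1 call it was 14.5 bp at MultiGPS-alone locations and 12.5 bp at those with a pair. These distances were not tested.

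Other short motifs were counted in the same windows, as a description. The E-box, CAGCTG or CAGATG, was present at 14.2% of MultiGPS-alone locations and 17.2% of those with a pair, against 9.47 and 8.88% of their moved windows. TGTGGT, a core bound by RUNX proteins, was present at 8.19% of MultiGPS-alone locations and 10.5% of those with a pair, against 5.08 and 6.19% when moved. CCNCNCCC, of the kind bound by KLF proteins, was present at 6.82 and 8.32%, against 7.07 and 7.72% when moved, so it was no more frequent at MultiGPS-alone locations than beside them. The AP-1 site, TGACTCA or TGAGTCA, was present at 1.77 and 2.15%, against 1.57 and 1.52% when moved. CCGGAAG, of the kind bound by ETS proteins, was rare, at 14 MultiGPS-alone locations (0.562%) and 64 with a pair (0.622%). When moved it was present in 0.241 and 0.418%. The median GC content of the 81 bp was 44.4% at MultiGPS-alone locations and 46.9% at those with a pair.

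Among MultiGPS-alone locations with WGATAA, the TG that ends an E-box was more frequent at 7 or 8 bp upstream of the motif where TAL1 was called. The test counted a TG whose last base is 7 or 8 bp before the WGATAA closest to the location, on the strand of the motif. This gap was taken from the paper's own result on the same libraries, so the test is not independent support for it. It was present at 104 of 245 MultiGPS-alone locations with a TAL1 call under 40 bp away (42.4%, 36.2 to 48.9%), against 135 of 938 without one (14.4%, 12.2 to 16.8%). The odds ratio was 4.38 (3.17 to 6.06, adjusted p = 1.52e-19, Fisher's exact test, two-sided, Benjamini-Hochberg over 2 features within these locations). MultiGPS locations with a GATA1 pair had the TG at 38.6% (37.1 to 40.2%) of those with a TAL1 call and 15.2% (14.0 to 16.5%) of those without. Gap by gap, TG stood at 7 bp in 19.2% and at 8 bp in 23.3% of the MultiGPS-alone locations with TAL1, while at the other gaps up to 20 bp it was in 5.71 to 12.7%. Without TAL1 it was in 6.61 to 9.38% at each gap. The Pde4d, Rhag and Car8 sequences above are of the first kind.

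**Figure D3:**
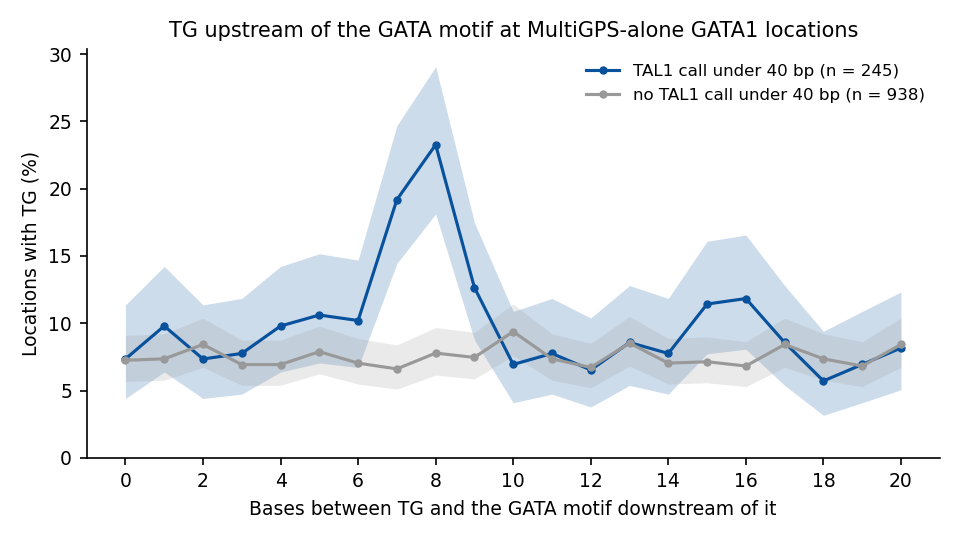
Percentage of MultiGPS-alone GATA1 locations with a TG (vertical axis) at each number of bases upstream of the closest WGATAA (horizontal axis), for the 245 with a TAL1 call under 40 bp away (blue) and the 938 without (grey), with 95% exact binomial intervals as bands. The blue line peaks at 7 and 8 bp, at 19.2 and 23.3%, and the grey line stays between 6.61 and 9.38%.

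WGATAA itself was a little more frequent where TAL1 was called, at 245 of 460 MultiGPS-alone locations with a TAL1 call (53.3%) against 938 of 2031 without (46.2%, odds ratio 1.33, 1.08 to 1.64, adjusted p = 0.00616, Fisher's exact test, two-sided). The closest TAL1 call lay upstream of the motif, on the motif's strand, at 157 of the 245 locations with both (64.1%, 57.7 to 70.1%), and at 63.5% (62.0 to 65.1%) of the 3788 such locations with a pair. The median TAL1 position relative to the middle of WGATAA was -12.5 bp at MultiGPS-alone locations and -10.5 bp at those with a pair. The side on which TAL1 lay was thus close to equal in both sets, a comparison that was not tested.

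Tandem repeats were several times more frequent at MultiGPS-alone locations than at those with a pair, which held fewer of them than the DNA around them. The 81 bp held a repeat of a unit of 1 to 6 bp running over 20 bp or more at 106 of the 2491 MultiGPS-alone locations (4.26%), against 74 of the 10290 with a pair (0.719%) and 1.41% of all MultiGPS locations (odds ratio 6.13, 4.5 to 8.4, adjusted p = 2.02e-31, Fisher's exact test, two-sided, over the same 8 features). Pairs alone had such a repeat at 0.787% (odds ratio of MultiGPS alone to pairs alone 5.6, 4.37 to 7.16, adjusted p = 2.08e-35, same Fisher's exact test over 5 features). In moved windows the share was 2.73% for MultiGPS-alone locations and 3.15% for those with a pair. The share thus lay above that of the moved windows for MultiGPS-alone locations and below it for those with a pair. The repeat unit was GATA, in any frame and on either strand, at 73 of the 106 MultiGPS-alone locations with a repeat and at 38 of the 74 with a pair. Of the 136 windows with a repeat moved from MultiGPS-alone locations, 9 had this unit. Repeats of other units were no more frequent at MultiGPS-alone locations than in their moved windows, which was not tested. A GATA repeat thus lay at 2.93% of all MultiGPS-alone locations and 0.369% of those with a pair, against 0.181 and 0.0972% of their moved windows, and at 0.242% of pairs alone.

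Few of these repeat locations had a TAL1 call. Of the 106 MultiGPS-alone locations with a repeat, 3 (2.83%) had a TAL1 call under 40 bp away, against 18.5% of all MultiGPS-alone locations. Repeat locations were low in TAL1 in the other sets as well, with a call at 12 of 74 (16.2%) among those with a pair and at 9 of 198 (4.55%) among pairs alone. A start site lay within 1 kb of 3 of the 106 (2.83%), against 8.71% of all MultiGPS-alone locations, and an exact WGATAA was at 42 (39.6%), against 47.5%. These shares of repeat locations were not tested. The longest repeat in them ran over 57 bp, and 39 ran over at least 30 bp. The authors kept uniquely mapped reads, and how well reads map in these repeats was not analysed here. A repeat with changed bases or with a unit over 6 bp is not counted by this measure. The motif copies in Slc11a2, which recur at more than 6 bp, were therefore not counted. The TAL1 and WGATAA shares without the repeat locations are given with the alternatives.

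Few MultiGPS-alone locations lay close to each other. Under 500 bp from one to the next, 24 runs held 49 of them (1.97%), of which 23 runs had 2 locations and 1 had 3. With GATA1 MultiGPS locations of either kind as neighbors, 209 MultiGPS-alone locations (8.39%) had another under 500 bp away. The same held for 1562 (15.2%) of those with a pair, a difference that was not tested. The run of 3 lay outside genes on chromosome 7, at 86150091, 86150337 and 86150456, with its closest start site that of Acan, the gene for the cartilage proteoglycan aggrecan, 47913 bp away. By order along the genome, the next of the runs of 2 lay on chromosome 1, at 57979022 and 57979396 in an intron, 46972 bp from the start site of Kctd18, and at 74182852 and 74183060 in an intron, 10699 bp from that of Rufy4. Neither a TAL1 call under 40 bp nor a start site within 10 kb was found for these 3 runs, and GATA in one of its frames covered 68.0, 52.5 and 55.5% of their spans. Over all 24 runs, 9 had a member in a tandem repeat and 17 had no TAL1 call under 40 bp from any member. Taken singly, 4.26% of all MultiGPS-alone locations had a repeat and 18.5% had a TAL1 call. The runs were not tested against these shares.

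In their place relative to genes, MultiGPS-alone locations were less often within 1 kb of a start site than those with a pair, and their shares in introns, in exons and outside genes did not pass the test. Protein-coding genes of GENCODE for mm9 were used. In introns lay 1369 MultiGPS-alone locations (55.0%), against 5773 with a pair (56.1%, odds ratio 0.955, 0.873 to 1.04, adjusted p = 0.312, Fisher's exact test, two-sided, over the same 8 features). In exons lay 85 (3.41%), against 417 (4.05% by the same exact test, odds ratio 0.836, 0.652 to 1.06, adjusted p = 0.172), and outside genes 1037 (41.6%), against 4100 (39.8%, odds ratio 1.08, 0.984 to 1.18, adjusted p = 0.141). The intervals show how far the odds could still differ. A start site lay within 1 kb of 217 MultiGPS-alone locations (8.71%), against 1068 with a pair (10.4%), which did pass (odds ratio 0.824, 0.704 to 0.962, adjusted p = 0.0205, same Fisher's exact test). With all annotated genes in place of protein-coding ones, the share outside genes was 39.3% against 37.0% and passed as well (odds ratio 1.10, adjusted p = 0.0425, Fisher's exact test).

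The 85 exonic locations comprised 39 in coding sequence, 20 in 5′ and 26 in 3′ untranslated parts, against 169, 120 and 128 of the 417 exonic locations with a pair. The median distance to the closest start site was 15697 bp for MultiGPS-alone locations and 13339 bp for those with a pair. Over 100 kb from any start site lay 274 MultiGPS-alone locations (11.0%) and 869 of those with a pair (8.45%). Neither of these distances was tested.

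**Figure D4:**
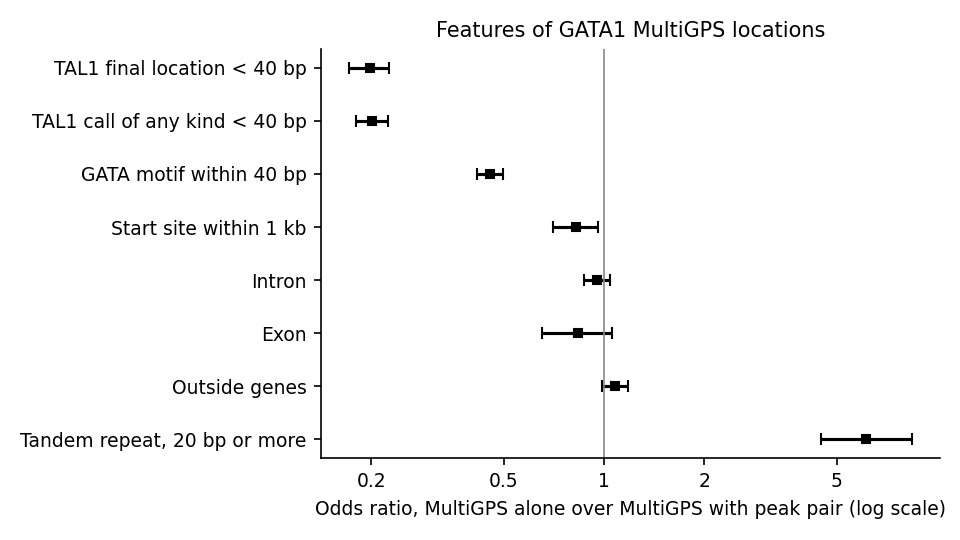
Odds ratios with 95% intervals (horizontal axis, log scale) for 8 features of GATA1 MultiGPS locations, MultiGPS alone over MultiGPS with a peak pair. TAL1 (0.198 and 0.201) and the motif (0.456) lie well left of 1, tandem repeats (6.13) lie right of it, and the intervals for introns, exons and outside genes include 1.

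The MultiGPS-alone locations were spread over many genes. A total of 2010 genes had a start site closest to at least 1 of them, 1647 of these to 1 only, and none to more than 7. In the body or within 10 kb, 1986 of 22208 genes had a MultiGPS-alone location (8.94%), against 5305 with a MultiGPS location that had a pair (23.9%). Of the 1986, 803 (40.4%) had no location with a pair in that range. A MultiGPS-alone location with a TAL1 call under 40 bp lay in the range of 424 genes, and 617 of the 2491 locations had no gene within 10 kb. No expression was analysed here, so closeness to a gene says nothing about its control.

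Atp2b1, which encodes a calcium pump of the plasma membrane, was closest to the most MultiGPS-alone locations, with 7, against 11 locations with a pair. In mm9 it covers 98377786 to 98488777 of chromosome 10, plus strand. Of the 7, 2 lay in its introns, at 98412648 and 98442723, with a final TAL1 location 5 and 14 bp away and WGATAA 7.5 and 8.5 bp away, and 10538 and 19046 bp from any GATA1 pair. The other 5 lay upstream, 13423 to 285699 bp from the start site. The most distant of these, at 98092087, had a TAL1 peak pair 39 bp away, and the one at 98364363 had a final TAL1 location at 40 bp, just over the limit. The 2 intronic locations thus met the distance of 40 bp used for cooccupancy, with no GATA1 pair in reach. The pooled lists do not show whether both factors were bound in the same cells.

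Homer2, for a scaffold protein of the Homer family, and Ncoa3, for a coactivator of nuclear receptors, were each closest to 6 MultiGPS-alone locations. Those of Homer2 (chromosome 7, 88745367 to 88851811, minus strand) lay in introns for 5 and 3449 bp upstream of the start for 1, and none had a TAL1 call under 40 bp away. The Homer2 location closest to the start within the gene, at 88829557, had WGATAA 5.5 bp away with a TG at 7 or 8 bp. Those of Ncoa3 (chromosome 2, 165818136 to 165898742, plus strand) included 2 upstream of the gene, at 165793757 and 165808589, with a final TAL1 location 15 and 14 bp away and a GATA1 pair at 119 and 173 bp. Neither of these 2 had WGATAA in its window. TAL1 calls under 40 bp were thus at 2 of 6 for Ncoa3 and 0 of 6 for Homer2, beside 18.5% over all MultiGPS-alone locations, and this difference was not tested.

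Car8, for a carbonic anhydrase-related protein without enzyme activity, had 5 MultiGPS-alone locations and was closest to no location with a pair. In mm9 it covers 8070514 to 8166188 of chromosome 4, minus strand. The final GATA1 location nearest to any of the 5 was 1346166 bp away, while single GATA1 pairs lay at 1815 to 68286 bp. A final TAL1 location lay 6 bp from the one at 8212305, 46117 bp upstream of the start, whose TG and WGATAA are printed above. For the other 4 the closest TAL1 call was at 1354 bp or more. Car8 is therefore a gene whose GATA1 calls on the MultiGPS side came from this set alone.

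Pde4d, for a cyclic AMP phosphodiesterase, Nck2, for an adaptor protein with SH2 and SH3 domains, Podxl, for the sialomucin podocalyxin, and Rapgef6, for an exchange factor of Rap GTPases, were each closest to 5. Within Pde4d (chromosome 13, 109240142 to 110743669, plus strand), 6 MultiGPS-alone locations lay in introns. A TAL1 MultiGPS location alone, with no TAL1 pair under 40 bp, lay 26 bp from the one at 109334411 and 2 bp from the one at 109754397. Both had TG at 7 or 8 bp before WGATAA, as printed above. Nck2 (chromosome 1, 43502596 to 43627360) was closest to 16 locations with a pair besides, and no TAL1 call lay under 40 bp from its 5. At Podxl (chromosome 6, 31469488 to 31513981) a final TAL1 location lay 37 and 5 bp from the ones at 31575264 and 31608944, which are 61283 and 94963 bp upstream. At Rapgef6 (chromosome 11, 54336349 to 54512787) all 5 lay in introns, and the one at 54356068 had a final TAL1 location 11 bp away. TAL1 calls under 40 bp thus numbered 2 of 6 in Pde4d, 0 of 5 at Nck2, 2 of 5 at Podxl and 1 of 5 at Rapgef6, beside 18.5% over all MultiGPS-alone locations, and counts this small do not tell the genes apart.

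Genes of the blood lists had MultiGPS-alone locations at shares of 0 to 28.6%, against 8.94% of all genes. The counts were 4 of 14 for progenitor and cell cycle genes, 5 of 22 for heme, globin and iron, 3 of 19 for cytokine signaling and survival, 2 of 19 each for erythroid transcription regulators and for the red cell membrane and skeleton, and 0 of 16 for megakaryocyte and platelet genes. For locations with a pair the same lists stood at 10 of 14, 18 of 22, 15 of 19, 17 and 16 of 19 and 9 of 16, against 23.9% of all genes. Every gene of the blood lists with a MultiGPS-alone location also had one with a pair, as did most genes of each blood list. Over all genes, 803 of the 1986 with a MultiGPS-alone location had none with a pair. Of the control lists, synapse genes had 1 of 12 and liver genes 0 of 12 with a MultiGPS-alone location, and 1 of 12 and 0 of 12 with one that had a pair. The lists are small, and no test was made of them.

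**Figure D5:**
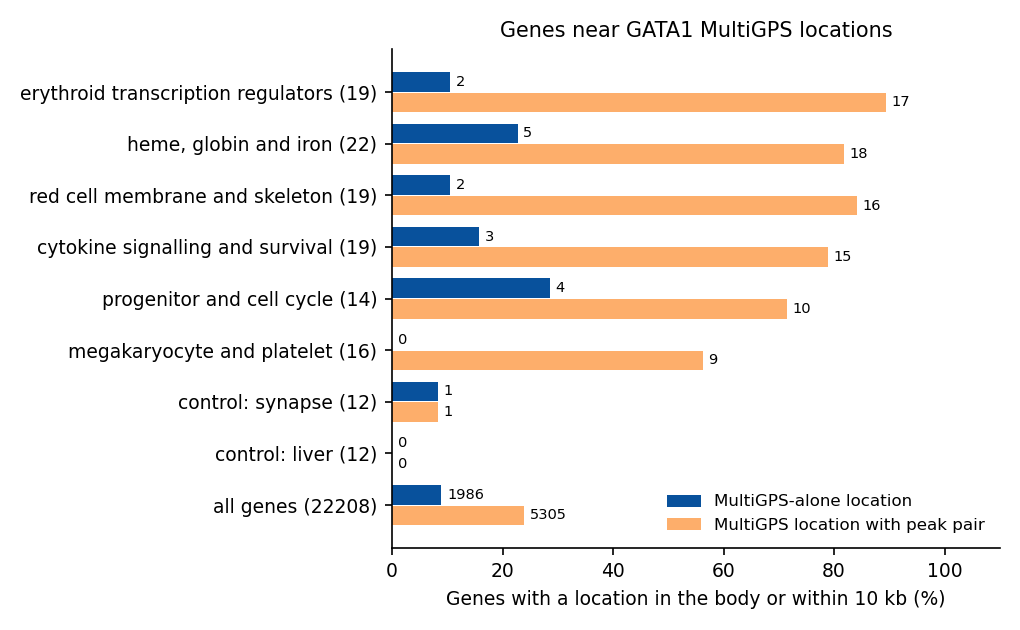
Percentage of genes (horizontal axis) with a MultiGPS-alone location (blue, upper bar) or a MultiGPS location with a peak pair (orange, lower bar) in the body or within 10 kb, for 8 lists and all genes, with list sizes in parentheses and gene counts beside the bars. The blue bars run between 0 and 28.6%, and the orange bars of the 6 blood lists between 56.2 and 89.5%.

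Among the erythroid transcription regulators, Runx1, for a factor of blood stem cells and megakaryocytes, and Gfi1b, for a repressor needed for red cells and platelets, had MultiGPS-alone locations within 10 kb. Runx1 (chromosome 16, 92601712 to 92826311, minus strand) had 2 in introns, at 92693206 and 92812882, with WGATAA 5.5 and 2.5 bp away, and was closest to 2 more upstream. The closest TAL1 calls to the intronic ones were TAL1 pairs at 4232 and 75 bp. In Gfi1b the location at 28475117 lay in an intron 2348 bp from the start, with a TAL1 pair 261 bp away and a GATA1 pair 605 bp away. Both genes had WGATAA and no TAL1 call under 40 bp at these places, and both had locations with a pair in the same range, 12 at Runx1 and 3 at Gfi1b. Such a TAL1 call was present at only 18.5% of all MultiGPS-alone locations, so its absence here is common.

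Of the heme and iron genes, Uros, for uroporphyrinogen III synthase of the heme pathway, had the MultiGPS-alone location nearest to a start site, 13 bp from it, at 140900654 on chromosome 7. It lay in a 5′ untranslated exon part, 6379 bp from any GATA1 pair, with WGATAA 9.5 bp away and TG at 7 bp, and a TAL1 pair 68 bp away. Tfrc, for the transferrin receptor that imports iron, had a location 543 bp upstream of its start, at 32608463 on chromosome 16, with a TAL1 pair 37 bp away and a GATA1 pair at 173 bp. Alas2, for the first enzyme of heme synthesis in red cells, had one 7021 bp upstream, at 146974897 on chromosome X, which lies in an intron of the neighboring Apex2 with a GATA1 pair at 140 bp. Slc11a2, for an iron transporter, had one in an intron at 100226625 on chromosome 15, 7049 bp from its start and 4582 bp from any pair. Of these 4 genes, Tfrc alone had a TAL1 call under 40 bp, from peak pairing only, beside 18.5% with one over all MultiGPS-alone locations.

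For the red cell membrane, Rhag, for the Rh-associated glycoprotein, had an intronic location at 40954804 on chromosome 17, 6729 bp from its start, with a final TAL1 location 20 bp away and 1714 bp from any GATA1 pair. Its TG and WGATAA are among the sequences above. Epb4.1, for protein 4.1 of the membrane skeleton, had one in an intron at 131586394 on chromosome 4 without WGATAA and with the closest TAL1 call at 4180 bp. Rhag was thus the named gene of this list with a TAL1 call under 40 bp, beside 18.5% with one over all MultiGPS-alone locations.

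Among signaling genes, Jak2, for the kinase of the erythropoietin receptor, had 1 location within 10 kb, in coding sequence, at 29345845 on chromosome 19, 17583 bp from any GATA1 pair, without WGATAA. Kit, for the receptor of stem cell factor, had 1 within that range, in an intron, at 75994246 on chromosome 5, 23266 bp from its start and 3772 bp from a pair, also without WGATAA. Bcl2l1, for the survival protein Bcl-xL, had 1 in an intron, at 152630472 on chromosome 2, with a TAL1 pair 121 bp away. None of these 3 had a TAL1 call under 40 bp, beside 18.5% with one over all MultiGPS-alone locations, and 3 are too few to tell apart from that share. Beyond 10 kb there were more, as Jak2 and Kit were each closest to 3 MultiGPS-alone locations. Upstream of them, WGATAA lay 0.5 bp from the one at 29260510 (Jak2) and 12.5 bp from the one at 75882625 (Kit). The upstream ones at 29301829 (Jak2) and 75900351 (Kit) had no WGATAA.

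Among progenitor and cell cycle genes, Hhex, for a homeobox factor of blood progenitors, had 2 downstream of its body, at 37516647 and 37517758 on chromosome 19, and 1 location with a pair in the same range. Cdk6, for a kinase of the G1 phase, had an intronic one at 3355241 on chromosome 5 with a pair at 102 bp, 2 bp past the limit, and WGATAA 7.5 bp away. Ccnd2, for a cyclin that works with that kinase, had one in an intron at 127092568 on chromosome 6, 8498 bp from the start and 2894 bp from a pair. Meis1, for a homeobox factor of blood stem cells, had an intronic one at 18837930 on chromosome 11 with a TAL1 MultiGPS location at 42 bp, just over the limit. Syp, for synaptophysin of the synapse control list, had one in coding sequence at 7225992 on chromosome X, 74097 bp from any GATA1 pair, without WGATAA and with its closest TAL1 call at 78129 bp. None of the 6 locations at these 5 genes had a TAL1 call under 40 bp, beside 18.5% with one over all MultiGPS-alone locations. Counts this small do not set these genes apart.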

How the data were processed

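The authors aligned ChIP-exo reads to mm9 with Bowtie 1.00 or BWA 0.6.2 and 0.7.9a after base calling by CASAVA 1.7 or bcl2fastq 2.15, kept uniquely mapped reads, merged replicates, left out blacklisted regions and called peak pairs and MultiGPS locations over input. The deposited lists hold single base positions (other unit: no count or score), pooled over libraries, so no depth per location is known. The final GATA1 list held 10290 locations, all of them MultiGPS locations with a pair at 100 bp or less.

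Distances were taken between positions in both directions. TAL1 was close under 40 bp, and motifs were exact strings on both strands in 81 bp. Genes were 22208 protein-coding names with 45939 start sites of GENCODE M1 for NCBIM37, which is mm9, and all positions lay within its 20 chromosomes. Of 134 listed genes, 133 were found (not Tfr2). Shares were compared by two-sided Fisher's exact tests with Benjamini-Hochberg adjustment over 8, 2 and 5 features, at a threshold of 0.05. The counting was tested on simulated data. Genes named are the 8 closest to the most members, up to 4 per list with the most members within 10 kb, the 3 largest runs (ties by position) and locations at the 100-bp limit. Further sequences are said to be picked later. The members and lists were chosen with earlier results of these data known. Tests ran in scipy 1.17.1 under Python 3.11.15, sequences were read with samtools 1.23.1 and pysam 0.24.0, tables were handled in pandas 2.3.3 with numpy 2.4.6, and plots were drawn in matplotlib 3.10.9. Tag profiles and the time points were not analysed here.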

Additional observations from a re-analysis of the deposited data

How the results depend on the processing

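Of 49 alternatives over 17 results, 46 kept the direction and the side of the threshold, or a count within 1.5 times. The share of locations outside genes passed Fisher's exact test with all annotated genes (odds ratio 1.10, adjusted p = 0.0425), against the one with protein-coding genes (1.08, adjusted p = 0.141), and the cause was not tested. The number of genes with a MultiGPS-alone location was 4323 within 50 kb and 1213 in gene bodies alone, against 1986 within 10 kb, by the construction of these ranges. With a pair at 50, 200 or 500 bp or less, the set held 3017, 2135 or 1894 locations. Over its alternatives the odds ratio for a TAL1 call of any kind ran from 0.184 to 0.209, and that for WGATAA from 0.316 (any GATA) to 0.536 (within 20 bp). Leaving out locations in tandem repeats, chosen after seeing the data, gave 0.209 for TAL1 and 0.460 for WGATAA. The comparison with pairs alone was also chosen after seeing the data. No paired analysis was possible because the lists pool all libraries of a factor, and for the same reason no replicate could be left out. Depth per location is unknown.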
